A study of Mus musculus with 24 samples.

Results

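Aminoacyl-tRNA synthetases are the enzymes that attach each amino acid to its transfer RNA (tRNA) before protein synthesis. The genes described here are 36 nuclear genes of this family, taken by symbol from the array's annotation. Members whose symbol ends in 2 formed the mitochondrial group, and the others the cytosolic group, which includes Gars and Kars as dual genes. Of the 36 genes, 35 had a probe set annotated with that symbol alone, and 34 were measured, of 9825 genes measured in all. The measured members were 19 cytosolic or dual genes and 15 mitochondrial genes. Dars, for aspartate, had no probe set of 1 symbol and was not analysed here. Mars2, the mitochondrial methionine enzyme, averaged a log2 value of 2.73 over the 24 arrays, below the level of 5 that was required on at least 6 arrays, and was not tested. The 34 measured members read at least 5 on all 24 arrays, so none of them entered the analysis through high arrays alone.

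The samples came from 1 immortalized line of mouse hepatocytes, MMH-D3, in its differentiated state. The cells were grown to confluence, kept for 14 days in medium with 2% DMSO and then given a serum shock, which sets the circadian clocks of cultured cells to a common phase. Total RNA was collected every 2 h from 12 to 58 h after the shock, with 1 Affymetrix array per time point and 24 arrays in all, and no group of cells without serum shock was among them. The values are log2 expression values per probe set. Nothing in the labels says that the time points came from separate cultures, so neighbouring arrays stand in for replicates in blocks of 4 arrays, and the p-values measure only the spread among these arrays.

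Cytosolic and mitochondrial protein synthesis use separate sets of these enzymes, and most amino acids have 1 nuclear gene for each compartment. Gars and Kars, for glycine and lysine, each encode both forms, Eprs encodes a fused enzyme for glutamate and proline, and Farsa and Farsb encode the subunits of the cytosolic phenylalanine enzyme. Qars, for glutamine, has no mitochondrial counterpart, because mitochondria make that charged tRNA from the glutamate form. Many cytosolic synthetase genes are known targets of ATF4, the transcription factor of the amino acid response, which binds a composite element with C/EBP proteins.

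The array quality measures bear on every result below. The median of the measured probe sets lay between 8.96 and 9.14 on the 24 arrays, and the 40 h array was the lowest. The difference between 3' and 5' probe sets of Gapdh lay between -0.49 and -0.36, and that of actin between 0.32 and 0.51. Of 13 hepatocyte markers on the array 7 were measured, among them Alb, Ttr, Apoa1 and Hnf4a, while Apoa2, Apoh, F2, Cyp2e1, Cps1 and Tat lay at or near the lowest value of the table, 2.17. Krt19 and Krt7, keratins of bile duct cells, averaged 15.44 and 12.53, so the defining markers of mature hepatocytes were present only in part. None of 9 fibroblast and 5 endothelial markers were measured. Of 7 macrophage markers 3 were, Cd14, Cd68 and Csf1r, with means of 14.79, 6.15 and 5.36. Ptprc, Adgre1, Clec4f and Lyz2 lay near the lowest value, at 2.17, 2.20, 2.17 and 2.18.

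Promoter sequences are shown first, and whether they bear on the changes described below was not tested. RefSeq promoter windows of GRCm38.p6, from 250 bases before to 50 after the transcription start, were matched by symbol for 27 of the 36 genes. The composite element was searched on both strands as TGATGNAA. It was found in 5 of the 9 cytosolic genes with a window that rose from 36-42 h to 44-50 h, in 0 of 3 cytosolic genes without a call and in 0 of 14 mitochondrial genes with a window, of which Aars2 had 2 and Mars2 was not measured. Of all 32851 windows of the table, 1304 (3.97%) held it, and the counts of 0 of 3 and 0 of 14 are near that share. Cars, Lars, Nars, Rars, Vars and Wars, which also rose, had no window. The groups are small and the motif was chosen with the time courses known, so the counts are a description of these letters and not of binding.

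For each of the 5 genes, the match nearest the start is printed with 11 bases on either side, 5′ to 3′ on the strand of the gene, with the motif in capitals. The match of Aars lies at chr8:111033840-111033869 on the plus strand and begins 9 bases after the start. The match of Gars lies at chr6:55037960-55037989 on the plus strand and begins 30 bases before the start, and that of Tars at chr15:11399655-11399684 on the minus strand, 15 bases before. The match of Iars lies at chr13:49682126-49682155 and that of Yars at chr4:129189895-129189924, both on the plus strand, beginning 7 and 3 bases after the start. In Yars the element reads along the gene, and in the others it reads on the opposite strand.
Aars: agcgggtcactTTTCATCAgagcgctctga
Gars: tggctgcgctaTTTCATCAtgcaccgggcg
Iars: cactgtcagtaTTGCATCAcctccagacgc
Tars: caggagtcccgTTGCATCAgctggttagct
Yars: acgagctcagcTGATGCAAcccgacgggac

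Most cytosolic synthetase mRNAs, 15 of 19, were higher from 44 to 50 h after the serum shock than from 36 to 42 h, with the widest step of the group's median between 42 and 44 h. In bulk RNA a change in the mix of cells and a change in RNA per cell cannot be told apart. Each gene was set against its own mean from 12 to 42 h. On this scale the median cytosolic gene stood between -0.13 and 0.19 log2 units from 12 to 42 h, at 0.13 on the 42 h array, at 0.89 at 44 h and at 1.05 at 46 h. It then stayed between 0.71 and 0.95 up to 58 h. The median mitochondrial gene moved between -0.15 and 0.15 over the whole course, and the median of all 9825 genes between -0.05 and 0.08.

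**Figure D1:**
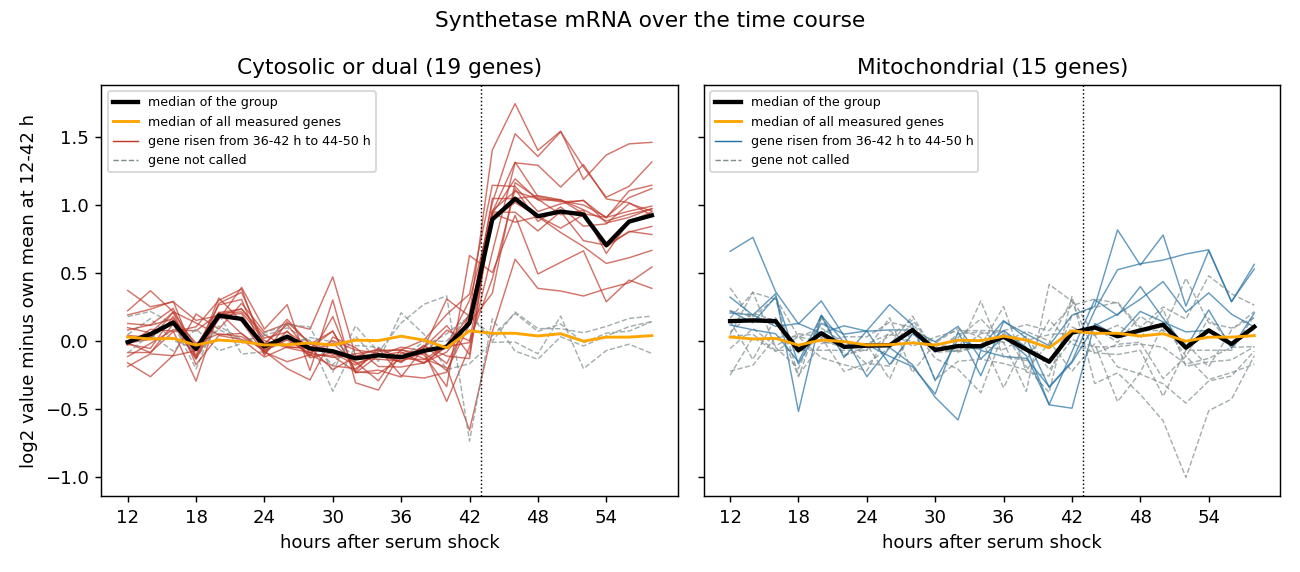
Log2 value of each synthetase gene minus its own mean from 12 to 42 h, against hours after serum shock, for 19 cytosolic or dual genes (left) and 15 mitochondrial genes (right); coloured lines are genes that rose from 36-42 h to 44-50 h, dashed grey lines genes without a call, the black line the median of the group and the orange line the median of all 9825 genes. The cytosolic median goes from 0.13 at 42 h to 0.89 at 44 h, while the mitochondrial median goes from 0.06 to 0.10.

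The central comparison set the 4 arrays from 44 to 50 h against the 4 arrays from 36 to 42 h. It was tested with limma across all probe sets, with Benjamini-Hochberg adjustment and a threshold of 0.05. Of 19 cytosolic genes 15 rose, 0 fell and 4 were not called. Of 15 mitochondrial genes 5 rose, 0 fell and 10 were not called. Of all genes 20.5% rose and 12.7% fell, and the mitochondrial share lay nearer to this background than the cytosolic one. The median change on the log2 scale was 0.97 over the cytosolic genes, 0.12 over the mitochondrial genes and 0.04 over all genes. A rise of at least 1 log2 unit was called in 9 cytosolic and 0 mitochondrial genes, against 1.48% of all genes.

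The arrays themselves separated in the same manner. In 14 of 19 cytosolic genes all 4 arrays from 44 to 50 h lay above all 4 arrays from 36 to 42 h, against 4 of 15 mitochondrial genes and 15.5% of all genes. Over the whole course, all 8 arrays from 44 h on lay above all 16 earlier arrays in 12 cytosolic genes (63.2%), in 0 mitochondrial genes and in 6.06% of all genes. Those 12 were Aars, Cars, Eprs, Gars, Iars, Lars, Mars, Nars, Rars, Sars, Tars and Yars.

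Yars, which charges tyrosine, changed the most. It read 8.04, 8.03, 8.14 and 8.36 on the arrays at 36, 38, 40 and 42 h, and 9.57, 9.91, 9.57 and 9.71 at 44, 46, 48 and 50 h. Every later array was more than 1 log2 unit above every earlier one. The block means were 8.14 ± 0.15 (SD, n = 4) and 9.69 ± 0.16, a change of 1.55 ± 0.11 (SE) on the log2 scale or 2.92-fold (limma, adjusted p = 2.33e-10).

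Lars charges leucine and belongs to the multisynthetase complex, the assembly that holds several of the cytosolic enzymes. It read 10.45, 10.58, 10.44 and 10.77 in the earlier block and 11.62, 12.13, 11.96 and 12.14 in the later block. The groups did not overlap, and the 44 h array was the lowest of the later block. The change was 1.40 ± 0.10, or 2.65-fold (limma, adjusted p = 2.9e-10).

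Eprs, the fused glutamate and proline enzyme of the same complex, followed with more scatter. It read 10.66, 10.63, 10.26 and 10.66 from 36 to 42 h and 11.36, 12.01, 11.99 and 11.83 from 44 to 50 h. Its 40 h array was the lowest and its 44 h array stood below the other later arrays. The change was 1.25 ± 0.14, or 2.37-fold (limma, adjusted p = 7.23e-07).

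Gars, whose single gene serves glycine in both compartments, behaved as the cytosolic genes did. It read 11.24, 11.31, 11.17 and 11.51 in the earlier block and 12.44, 12.44, 12.46 and 12.43 in the later one. The 4 later arrays were nearly equal, with an SD of 0.01, and the 42 h array was already the highest of its block. The change was 1.13 ± 0.08, or 2.19-fold (limma, adjusted p = 1.44e-10).

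Iars, for isoleucine, read 10.80, 11.02, 11.18 and 10.96 and then 12.02, 12.16, 12.10 and 11.99. The change was 1.08 ± 0.10, or 2.12-fold (limma, adjusted p = 5.83e-08). Cars, for cysteine, read 9.67, 9.74, 9.93 and 10.08 and then 10.88, 10.87, 10.68 and 10.74. In both genes the blocks did not overlap, and Cars had its higher values of the earlier block at 40 and 42 h. Its change was 0.94 ± 0.09, or 1.92-fold (limma, adjusted p = 5.42e-08).

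The other 9 cytosolic genes that rose were Aars (alanine), Nars (asparagine), Mars (methionine), Sars (serine), Wars (tryptophan), Tars (threonine), Rars (arginine), Farsb (phenylalanine) and Vars (valine). Their changes ran from 1.05 ± 0.10 for Aars down to 0.62 ± 0.11 for Farsb and 0.60 ± 0.16 for Vars (limma, adjusted p = 0.00676 for Vars, the largest among the 15). Vars was the 1 gene of the 15 whose blocks overlapped, because its 42 h array already read 9.10 against 8.97 at 44 h. Its call was lost when the fit used the compared blocks alone or held a 24 h cosine and sine.

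**Figure D2:**
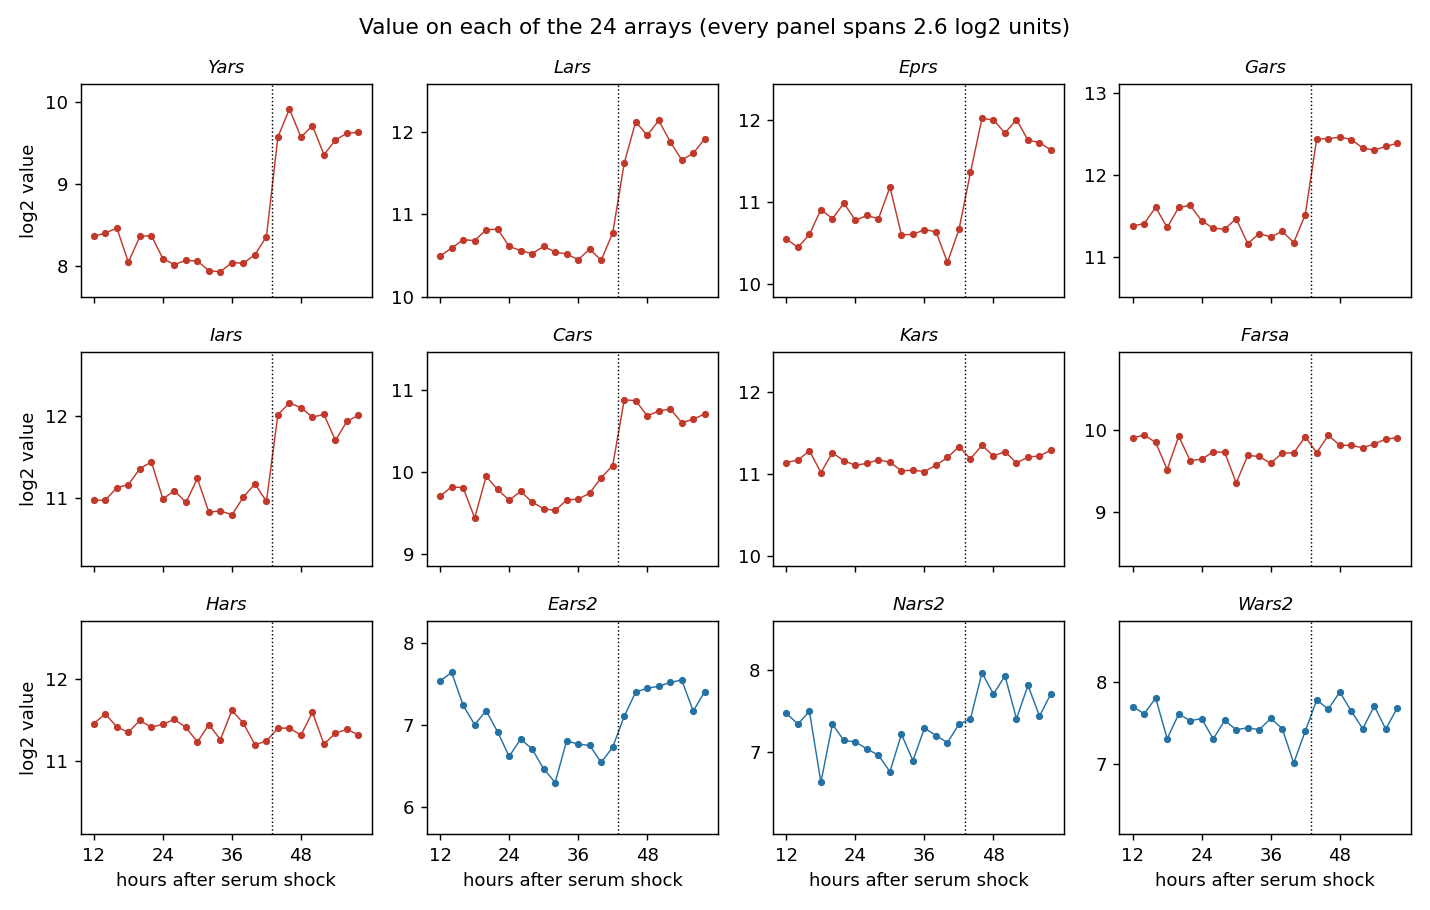
Log2 value on each of the 24 arrays against hours after serum shock for 12 synthetase genes, 9 cytosolic or dual (red) and 3 mitochondrial (blue), with 1 point per array, a dotted line between 42 and 44 h and the same span of 2.6 log2 units in every panel. Yars goes from 8.36 at 42 h to 9.57 at 44 h, while Kars goes from 11.34 to 11.19 and Hars from 11.24 to 11.40.

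The 4 cytosolic genes without a call were Kars, Farsa, Hars and Qars. Kars, the dual gene for lysine, read 11.03, 11.11, 11.21 and 11.34 and then 11.19, 11.35, 11.22 and 11.28, a difference of 0.09 ± 0.07 (limma, adjusted p = 0.314). Farsa read 9.60, 9.72, 9.72 and 9.92 and then 9.72, 9.94, 9.82 and 9.82, a difference of 0.08 ± 0.10 (limma, adjusted p = 0.534). Hars, for histidine, read 11.61, 11.45, 11.19 and 11.24 and then 11.40, 11.40, 11.31 and 11.59, a difference of 0.05 ± 0.08 (limma, adjusted p = 0.676), or -0.02 with each array centred. In all of these the blocks overlapped. The difference of Qars was -0.003 ± 0.15, with a 42 h array of 10.24 below every other array of the course, and without that array Qars fell by 0.25.

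The dual genes did not share a call, and neither did the phenylalanine subunits. Gars rose and Kars did not pass the test, and Farsb rose while its partner Farsa did not pass the test. Whether Gars differed from Kars, or Farsb from Farsa, was not tested.

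The 4 genes without a call came from both enzyme classes and from inside and outside the complex. The synthetases fall into class I and class II by the fold of their catalytic domain. Of 9 class I genes 8 rose, with a median change of 0.97, and of 9 class II genes 6 rose, with a median of 0.96, while Eprs holds a domain of each class. Of the 7 measured genes of the multisynthetase complex 5 rose, all but Kars and Qars, and of the 12 outside it 10 rose. The medians were 1.02 and 0.97.

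Where a gene had other probe sets that passed the filter, these were compared with the one used. In the cytosolic group 14 of 14 other probe sets, of 9 genes, gave the same call, among them 3 for Wars with changes of 1.03, 1.10 and 1.11. In the mitochondrial group 6 of 7 did. The exception was Yars2, whose other probe set gave 0.35 with an adjusted p of 0.062 (limma). The sizes differed in some genes with the same call. The other probe set of Wars2 gave 0.64 against 0.39 for the one used (limma, adjusted p = 0.000498 and 0.0124). That of Vars2 gave 0.44 against 0.05 (limma, adjusted p = 0.0992 and 0.704), and that of Tars2 gave -0.01 against 0.02.

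The 5 mitochondrial genes that rose changed by 0.35 to 0.66, below all cytosolic rises but those of Farsb and Vars, which Ears2 exceeded. Ears2, the mitochondrial glutamate enzyme, which also supplies the precursor of the glutamine tRNA there, read 6.77, 6.75, 6.54 and 6.73 and then 7.11, 7.40, 7.45 and 7.47. The blocks did not overlap, and the change was 0.66 ± 0.14, or 1.58-fold (limma, adjusted p = 0.00133). The later block was no higher than the first hours of the course, since Ears2 had read 7.54 and 7.64 at 12 and 14 h.

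Nars2, for asparagine, read 7.29, 7.20, 7.12 and 7.34 and then 7.41, 7.97, 7.71 and 7.93. The change was 0.51 ± 0.16, or 1.43-fold (limma, adjusted p = 0.0174). Wars2, for tryptophan, read 7.56, 7.43, 7.01 and 7.40 and then 7.78, 7.67, 7.88 and 7.65. The gap between the blocks was small in both genes, and the 40 h array was the low one of Wars2. Its change was 0.39 ± 0.12, or 1.31-fold (limma, adjusted p = 0.0124).

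Iars2 and Yars2 changed by 0.39 ± 0.09 and 0.35 ± 0.11 (limma, adjusted p = 0.00156 and 0.018). Several of these calls rest on single arrays or on the design of the fit. The call of Nars2 was lost without the 46 h or the 50 h array (0.44 and 0.46), that of Wars2 without the 40 h array (0.28), and that of Yars2 without the 40 h or the 50 h array (0.26 and 0.29). In the fit on the compared blocks alone the calls of Iars2, Wars2 and Yars2 were lost, and with a 24 h cosine and sine that of Yars2. With the blocks moved 1 array earlier, 34-40 h against 42-48 h, 0 mitochondrial genes rose and 1 fell, while 14 cytosolic genes still rose. The share of all genes under this setting is not given.

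The other 10 mitochondrial genes ranged from 0.23 ± 0.11 for Hars2 to -0.34 ± 0.17 for Cars2. Their adjusted p-values lay between 0.118 and 0.843 (limma). Of these, Hars2, Pars2, Rars2, Vars2 and Tars2 had estimates above 0, with Vars2 and Tars2 below 0 once each array was centred on its median (-0.02 and -0.05) or quantile normalized (-0.06 and -0.04), and Lars2, Sars2, Fars2, Aars2 and Cars2 estimates below 0. Hars2 was called as a rise without the 36 h array (0.32) and with 8 arrays on each side (0.28), and Aars2 as a fall without the 38 h array (-0.33). Falls were also called for Cars2, Fars2 and Lars2 with 8 arrays on each side (-0.35, -0.23 and -0.17), for Cars2 with quantile normalization (-0.46), for Fars2 with the blocks moved 1 array later (-0.28) and for Lars2 with them moved 1 array earlier (-0.26).

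**Figure D3:**
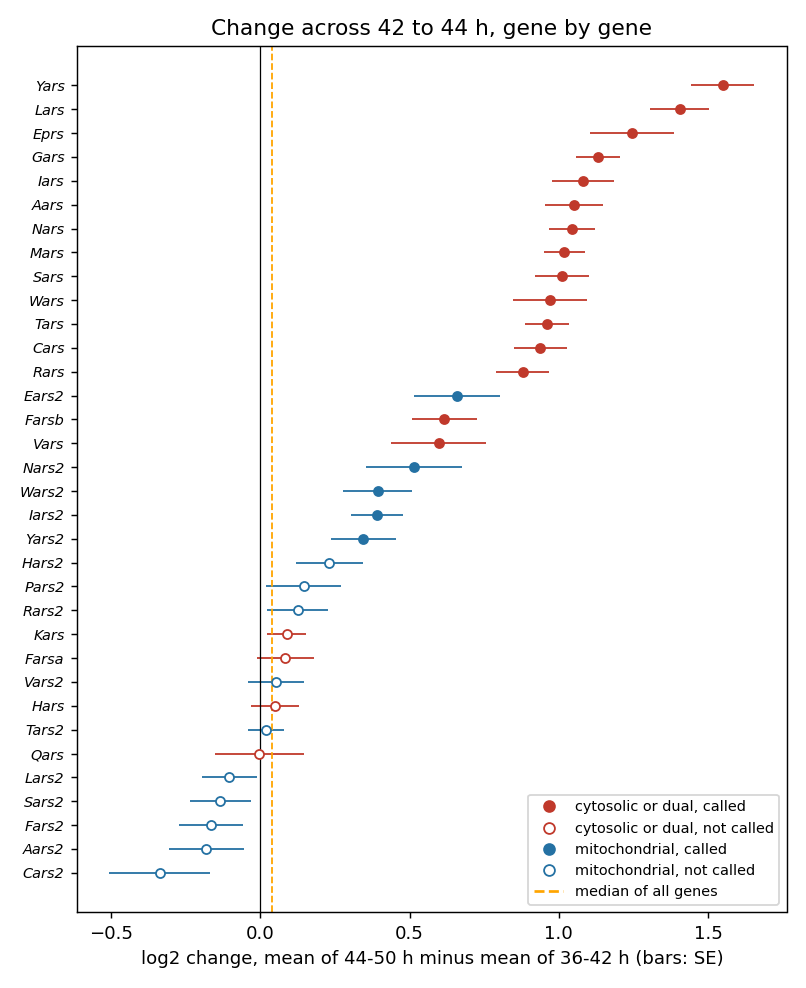
Log2 change from the mean of 36-42 h to the mean of 44-50 h for each of the 34 measured synthetase genes, with bars of 1 standard error; filled points passed the test, open points did not, red is cytosolic or dual, blue is mitochondrial, and the dashed line is the median of all genes at 0.04. The 13 largest changes, from Yars at 1.55 to Rars at 0.88, are all cytosolic, and Ears2 at 0.66 is the largest mitochondrial one.

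The 2 compartments were then compared amino acid by amino acid. For each pair, the log2 value of the mitochondrial gene was subtracted from that of its cytosolic partner on each array, which removes any scaling of the whole array, and the change of this difference across 42 to 44 h was tested. Of 17 pairs 16 could be formed from measured genes. The change was larger in the cytosolic gene in 14 pairs, larger in the mitochondrial gene in 0 and not called in 2 (limma, adjusted over all probe sets and pairs). The median difference over the 16 pairs was 0.77. In most pairs the cytosolic gene had the higher mean over the 24 arrays, for instance 11.98 for Sars against 6.42 for Sars2. Yars, at 8.65, lay below Yars2, at 9.51. Whether the gap in level affects the differences was not tested.

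The widest gap was that for leucine, where Lars rose by 1.40 and Lars2 changed by -0.10, a difference of 1.51 with a 95% interval from 1.22 to 1.80. Next were cysteine at 1.28 (0.94 to 1.61), alanine at 1.23 (0.97 to 1.50) and tyrosine at 1.20 (0.89 to 1.52). In the tyrosine pair both genes rose, Yars by 1.55 and Yars2 by 0.35. The narrowest called gaps were asparagine at 0.53 (0.23 to 0.83) and valine at 0.55 (0.24 to 0.85).

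The pairs without a call were Farsa with Fars2 and Hars with Hars2. Their differences were 0.25 (0.04 to 0.46, adjusted p = 0.0667) and -0.18 (-0.40 to 0.03, adjusted p = 0.188) by limma. The upper bound for histidine, 0.03, lies below the differences of all 14 called pairs. The exact two-sided permutation test over the 8 arrays allows no p below 0.0286, and 12 pairs reached it, unadjusted, all but tryptophan (0.0857), valine (0.0571), Farsa with Fars2 (0.114) and histidine (0.257). The call for Eprs against Ears2, a difference of 0.59 (0.20 to 0.98), was lost without the 40, 46 or 48 h array and with 8 arrays on each side, and that for tryptophan without the 46 h array (0.46). Conversely, the histidine pair was called, with the larger change in Hars2, without the 42 h array (-0.29) and with 8 arrays on each side (-0.27). Farsa against Fars2 was called without the 44 h array (0.35) and with 8 arrays on each side (0.39).

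**Figure D4:**
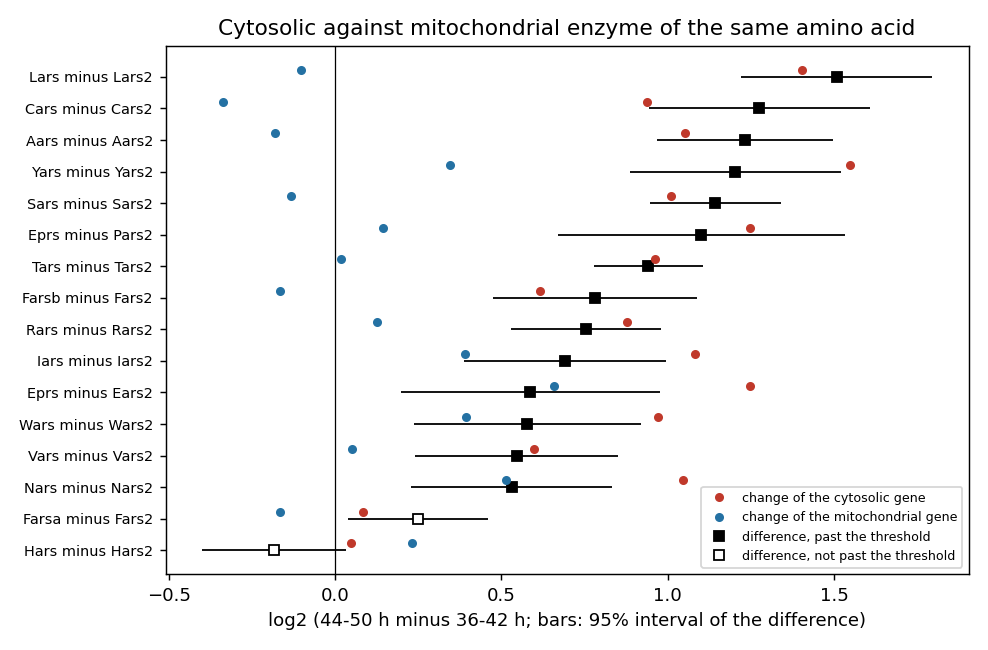
Log2 change from 36-42 h to 44-50 h of the cytosolic gene (red) and of the mitochondrial gene (blue) of the same amino acid, and their difference (squares, filled where past the threshold) with its 95% interval, for 16 pairs. The difference runs from 1.51 for Lars minus Lars2 to -0.18 for Hars minus Hars2, and the intervals of the 14 called pairs lie above 0.

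The 15 cytosolic genes had covered different shares of their rise on the 44 h array. The mean from 28 to 40 h and the mean from 46 to 58 h, with 7 arrays each, were taken as the levels before and after. The 44 h array had covered a median of 94.7% of the rise. In 5 genes the 44 h array lay below all 7 later arrays, and these genes had covered 35.8% (Farsb), 40.5% (Wars), 51.4% (Rars), 58.0% (Eprs) and 78.6% (Lars) of it. Yars, Gars, Iars and Aars had reached 97.1%, 105%, 103% and 104%. Farsa, which was not called, and the mitochondrial genes Ears2 and Nars2 also lay below all 7 later arrays at 44 h. No share of all genes is given for this count, and whether the genes differ in timing was not tested.

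Some of these genes stood higher 1 array earlier. In 9 of the 15 genes the 42 h array lay above the range of the 7 arrays from 28 to 40 h. It had covered 113% of the rise in Vars, 38.8% in Cars, 35.9% in Nars, 34.7% in Aars, 22.2% in Wars, 21.0% in Gars, 20.6% in Yars, 17.9% in Lars and 12.1% in Tars, but -1.1% in Eprs and -1.7% in Iars. Farsb stood apart, with its lowest value of the course, 10.31, at 42 h. A single array stands behind each of these shares, so they have no replicate error. Kars and Farsa, which were not called, also lay above their range from 28 to 40 h on that array. So did the mitochondrial genes Cars2, Nars2, Rars2 and Vars2. The median of all genes was at its highest of the course there, at 0.08. No share of all genes above their range is given, and whether the 42 h values belong to the rise was not tested.

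After the rise no further change was called. From 44-50 h to 52-58 h, 0 of 19 cytosolic and 0 of 15 mitochondrial genes were called by limma, beside 4 genes (0.0407%) of all. At an unadjusted p under 0.05, 1 gene of each group passed. The median change was -0.11 in the cytosolic group, -0.06 in the mitochondrial group and -0.03 over all genes.

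Before the rise, few members were called over a full day. From 12-18 h to 36-42 h, which are the same hours of the 24 h cycle, 0 members rose and 3 fell, while 14.3% of all genes rose and 12.1% fell. The 3 were Farsb, which fell by 0.53, Iars2, by 0.42, and Ears2, by 0.66 (limma, adjusted p = 0.00108, 0.00111 and 0.00175). All 3 were also among the 20 that rose at 44-50 h, in a comparison that shares the arrays from 36 to 42 h. Farsb went from a mean of 11.23 ± 0.09 (SD, n = 4) at 12-18 h to 10.70 ± 0.27 and then to 11.32 ± 0.22. Ears2 went from 7.36 ± 0.29 to 6.70 ± 0.10 and then to 7.36 ± 0.17, and Iars2 from 10.39 ± 0.05 to 9.97 ± 0.26 and then to 10.36 ± 0.07. In these 3 genes the later level was thus close to that of the first block, unlike Yars, whose means were 8.32 ± 0.19, 8.14 ± 0.15 and 9.69 ± 0.16. The count of 3 was 7 when the probe sets of a gene were averaged, 6 without the 18 h array, 5 without the 38 h array and 7 without the 42 h array. The shares of all genes under these settings are not given.

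The same hours of the cycle were also compared across the rise, 52-58 h against 28-34 h. Of 19 cytosolic genes 15 rose and 0 fell, and of 15 mitochondrial genes 3 rose and 2 fell, against 21% and 15.3% of all genes. All 15 were among the 15 that rose at 44-50 h, in a comparison with other arrays. Yars changed by 1.53 ± 0.11, Lars by 1.26 ± 0.10, Wars by 1.17 ± 0.12 and Sars by 1.13 ± 0.09 (limma, adjusted p = 2.28e-10, 1.54e-09, 2.3e-07 and 2.93e-09). Among the mitochondrial genes Ears2 rose by 0.84 ± 0.14, Nars2 by 0.63 ± 0.16 and Hars2 by 0.33 ± 0.11, while Fars2 fell by 0.29 and Lars2 by 0.24. The last 3 calls were near the threshold (limma, adjusted p = 0.0261, 0.0371 and 0.0488) and were lost without any 1 of several arrays, among them the 34, 54 and 56 h arrays.

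The series was made to follow the circadian cycle, and a 24 h rhythm was called in 1 of the 34 genes, against 2.77% of all genes. This was Vars, with an amplitude of 0.28 ± 0.07 on the log2 scale and a first peak at 22.7 h (limma, adjusted p = 0.0403). The call was lost in 13 of the 24 fits that left out 1 array. The fit holds a straight line beside the cosine and no term for a step. With an indicator of the arrays from 44 h on in the model, 6 members were called, and with a quadratic drift 13 were. The 2.77% of all genes belongs to the fit with the straight line. No share of all genes is given for these other models, so their counts have no background beside them. Over the 46 h, 14 cytosolic genes had a rising line and 0 a falling one, and in the mitochondrial group Nars2 and Vars2 rose and Cars2 and Lars2 fell, against 26.3% and 16.4% of all genes. With each array centred on its median, 1 cytosolic and 5 mitochondrial genes fell and the counts that rose were again 14 and 2. Without the 8 arrays from 44 h on, 0 cytosolic genes rose and 2 fell. The shares of all genes with centred arrays and without the later arrays are not given.

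The partners of the synthetases moved in part. Of 16 measured genes for complex scaffolds, tRNA export and tRNA processing, 8 rose and 0 fell from 36-42 h to 44-50 h. Of all genes 20.5% rose and 12.7% fell. The median change was 0.24 against 0.04 over all genes. Xpot, the exportin that carries tRNA out of the nucleus, rose by 1.25 ± 0.10, and Yrdc, which makes a precursor of a tRNA modification, by 0.88 ± 0.09 (limma, adjusted p = 1.19e-09 and 3.07e-07). Eef1e1, a scaffold subunit of the multisynthetase complex, rose by 0.61 ± 0.09 (limma, adjusted p = 1.52e-05). Of the other scaffold subunits, Aimp1 rose by 0.25 ± 0.06 and Aimp2 differed by 0.06 ± 0.08 (limma, adjusted p = 0.00147 and 0.636).

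Of 14 measured genes of mitochondrial translation outside the members 2 rose and 1 fell, near the 20.5% and 12.7% of all genes. Gfm2 and Mtfmt rose by 0.31 ± 0.09 and 0.22 ± 0.08, and Tufm, the mitochondrial elongation factor Tu, fell by 0.31 (limma, adjusted p = 0.00827, 0.0357 and 0.00294). The median was 0.16. Of 7 measured cytosolic elongation and release factors 2 rose, beside 20.5% of all genes, and the median was 0.08. The 2 were Etf1, by 0.35 ± 0.06, and Eef1d, by 0.33 ± 0.09 (limma, adjusted p = 0.000299 and 0.0076).

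Genes of the amino acid response rose on the same arrays as the cytosolic synthetases. The list was written with earlier results of these data known. All 28 genes of the list that passed the filter on the arrays from 12 to 42 h rose from 36-42 h to 44-50 h. Of all genes 20.5% rose. Another 3 (Aldh1l2, Slc7a11 and Stc2) passed the filter only through the arrays after 42 h, so their rise was partly set by the filter. With them, 31 of 31 measured genes rose, with a median change of 2.00, and no median over the 28 is given. Chac1, an enzyme that breaks down glutathione, went from a mean of 5.74 to 11.37, a change of 5.64 ± 0.16 (limma, adjusted p = 6.16e-17). Trib3, a pseudokinase that restrains ATF4, changed by 4.74 ± 0.17, and Slc7a5, a transporter of large neutral amino acids, by 3.22 ± 0.13 (limma, adjusted p = 2.14e-15 and 4.09e-14). The mRNA of Atf4 itself changed by 1.14 log2 units, a size like that of Gars.

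Of 15 measured genes of the endoplasmic reticulum unfolded protein response, 4 rose, 3 fell and 8 were not called, shares near the 20.5% and 12.7% of all genes, with a median of -0.03. Herpud1, of the degradation machinery, rose by 0.68 ± 0.10, while the chaperone Calr fell by 0.51 and Sdf2l1 by 0.58 (limma, adjusted p = 1.33e-05, 4.23e-06 and 1.12e-05).

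**Figure D5:**
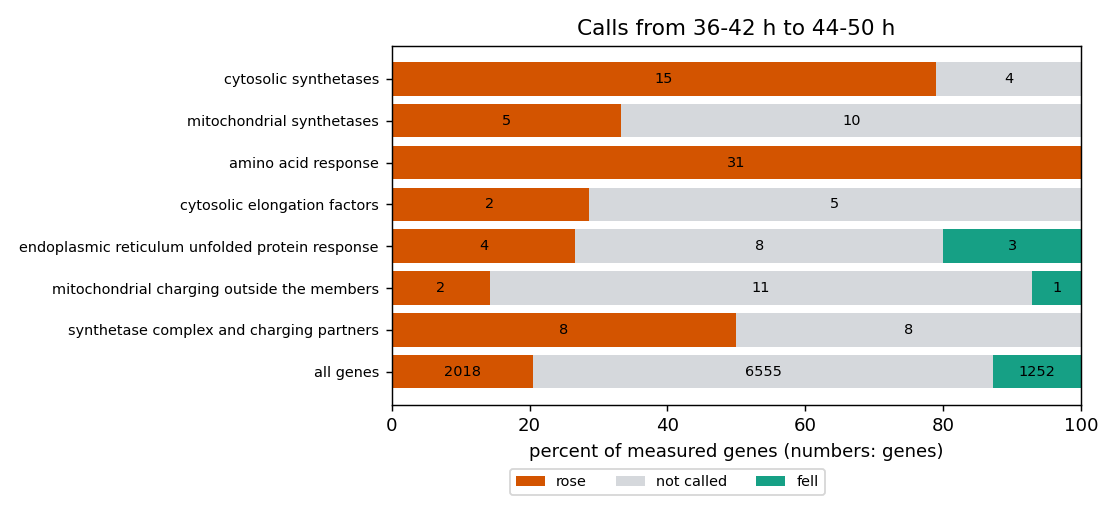
Percent of the measured genes of each list that rose (orange), were not called (grey) or fell (green) from 36-42 h to 44-50 h, with the number of genes printed in each bar, for the synthetases, for 5 lists of related genes and for all 9825 genes. All 31 amino acid response genes and 15 of 19 cytosolic synthetases rose, while 5 of 15 mitochondrial synthetases and 4 of 15 unfolded protein response genes did.

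Other measures were also set side by side for the blocks of the central comparison. The mean log2 level of the 7 measured hepatocyte markers lay between 12.62 and 12.93 from 36 to 42 h and between 12.35 and 12.60 from 44 to 50 h, with 5 of the 7 lower and 2 higher. Of all 9825 genes, 4320 had an estimate below 0. Ttr, for instance, averaged 13.81 and then 12.83, while the 2 higher ones were Apob, at 9.12 and then 9.56, and Rbp4, at 14.24 and then 14.48. The 4 bile duct markers lay between 11.86 and 11.98 and then between 11.63 and 11.99. The 3 measured macrophage markers lay between 9.05 and 9.12 and then between 8.79 and 9.21. In these marker groups the ranges of the blocks overlapped. The share of values at the lowest value of the table was 39.3% to 41.8% and then 41.6% to 42.1%. The part of these measures in the result was not tested.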

How the data were processed

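The deposited table holds log2 values of 45101 probe sets on 24 single-colour Affymetrix arrays. Per the submitters' processing notes, the authors used GCRMA. Its version and settings are not given in the sources used here, and that the scale is log2 was read from the range of the values. GCRMA normalizes the arrays together, so a change shared by most genes would be removed. Symbols came from the platform annotation: 34958 probe sets had 1 symbol, 932 had several and 9211 had none. A gene was its probe set of highest mean. Probe sets reading at least 5 on at least 6 arrays (18526 probe sets, 9825 genes) were tested with limma 3.58.1 in R 4.3.3, with an intensity trend and Benjamini-Hochberg adjustment over all probe sets at 0.05.

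Each array was assigned to 1 of 6 consecutive blocks of 4 arrays, and 1 fit over the 24 arrays gave the contrasts between blocks. A second fit held a linear term and a 24 h cosine and sine. Pair differences entered the block fit as added features. The scripts were tested on simulated data. The number of arrays limits the precision. The members, blocks, contrasts, gene lists and motif were chosen with earlier results of these data known. Genes given in full were the 5 cytosolic and 3 mitochondrial members of largest change past the threshold, Gars, Kars and the cytosolic members of the 2 widest and 2 narrowest pairs; other lists name up to 3 genes of smallest p, and Aimp1, Aimp2, Atf4 and any other gene were named after their values were seen. Promoter sequences are RefSeq's for GRCm38.p6. One promoter match is not reported here.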

Additional observations from a re-analysis of the deposited data

How the results depend on the processing

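The count of 20 members called from 36-42 h to 44-50 h was 18 to 21 with 1 array left out and 15 to 24 under 10 other settings, and the cytosolic rises among them were 14 or 15 under all of these; without the 42 h array Qars also fell. From 36-42 h against 12-18 h, 3 members were called, 7 with the probe sets of a gene averaged and 3 to 7 with 1 array left out. For 52-58 h against 28-34 h the 20 calls became 17 to 20 with 1 array left out and 17 to 22 otherwise, and for 52-58 h against 44-50 h there were 0 under all 15 alternatives. The 14 pairs called became 12 to 15 with 1 array left out, 12 by the unadjusted exact permutation test and 15 with 8 arrays on each side. These counts hold calls of either direction. Without the 42 h array and with 8 arrays on each side, they include the histidine pair, with the larger change in Hars2. The 24 h rhythm was called in 1 member, in 0 without the filter, in 0 without a drift term and in 0 to 1 with 1 array left out. It was called in 13 with a quadratic drift and in 6 with an indicator from 44 h on. No share of all genes is given for any alternative setting named in this section, so these counts have no background beside them. The linear change was called in 18 members, in 17 to 20 with 1 array left out, and in 6 without the arrays from 44 to 58 h. Without those arrays the fitted line over 46 h turned to a fall in 11 members: Aars -0.25, Eprs -0.12, Gars -0.26, Iars -0.17, Lars -0.077, Mars -0.36, Rars -0.23, Tars -0.37, Wars -0.53, Yars -0.39 and Nars2 -0.21, of which Wars passed the threshold (limma, adjusted p = 0.017). This setting leaves out the arrays after the rise. No paired analysis was possible because each time point is 1 sample and the replicate numbers pair no samples. Centring or quantile normalization of the arrays turned no called change around, but took the small estimates of Tars2 and Vars2, and with centring that of Hars, below 0. Log2 values near the lowest value of the table have no order, which limits Mars2. Among the tested members, Sars2 held an identical value, 6.38, on every array from 16 to 24 h and on several others. Vars2 likewise held 7.61 on several arrays, among them those at 36, 40 and 50 h. This limits the estimates of these 2 genes and of the serine and valine pairs. Other members also held an identical value on more than 1 array. Among them were Wars (9.96 at 18 and 42 h), Nars2 (7.34 at 20 and 42 h), Wars2 (7.42 at 30 and 34 h) and Tars2 (9.23 at 46 and 58 h). Why the values repeat was not tested.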
